A study of Arabidopsis thaliana with 18 samples.

Results

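The 10 genes described here encode NAC transcription factors of drought, abscisic acid (ABA) and jasmonate responses and of leaf senescence. They are NAC019, NAC055, RD26, ATAF1, ATAF2, NAC102, NAP, ORE1, NAC016 and VNI2, and they were taken by gene identifier from the 27655 genes in each deposited table. Their transcripts were followed in rosette leaves of 32-day-old Arabidopsis thaliana of 3 genotypes in 2 conditions, with 3 libraries in each of the 6 groups and 18 in all. The first genotype is jar1-11, a line with lowered JAR1 expression that carries the insertion SALK_034543. The second is JAR1-OE, a line that overexpresses JAR1.1 and whose tables hold a separate entry named YFP-JAR1, and both are set against wild type (WT) of the accession Col-0. Each altered genotype is represented by 1 line, and no source used here names the promoter of the transgene. JAR1 is the enzyme that joins jasmonic acid to isoleucine, which makes the active form of the hormone. All plants were watered for 18 days. Drought plants then went without water for 14 days while control plants were watered on. The labels call the 3 libraries of a group biological replicates without saying how many plants went into each. The p-values therefore reflect the spread among the libraries at hand. Leaf RNA is a mixture of cell types, in which fewer cells of a type and less RNA per cell cannot be told apart.

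NAC proteins share a DNA-binding domain at the amino end and have variable activating or repressing ends. In Arabidopsis leaves several of them form a cascade in which ABA, ethylene and jasmonate signals meet the ageing programme that dismantles chlorophyll and exports nutrients. NAC019, NAC055 and RD26 are close relatives induced by drought, salt, ABA and methyl jasmonate, and MYC2, the main transcription factor of jasmonate signalling, acts upstream of them. ATAF1, ATAF2 and NAC102 belong to the ATAF subfamily. NAP, ORE1 and NAC016 promote leaf senescence, whereas VNI2 delays it.

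The sequence just before each annotated gene start was read from the TAIR10.1 genome of RefSeq, 250 bases in the direction of transcription, because ABA-responsive and jasmonate-responsive factors bind short motifs there. The letters ACGTG, the core of the ABA-responsive element, were searched on both strands and stood in the windows of 4 of the 10 genes, against 22.9% of 27431 gene windows of the same length. CACGTG, the G-box that contains those letters and is bound by MYC2, stood in 2 of the 10 (NAC019 and NAP), against 6.49% of windows. CATGTG, a core of the sequence that NAC proteins bind, stood in 0 of the 10, against 11.1%. The 4 windows with ACGTG are printed, with the matched letters in capitals. Genes without these letters in the window, ATAF1 among them, also moved in several comparisons. A match is a run of letters and not a measured binding site. The windows are at chr1:19698483-19698732 (minus strand) for NAC019, chr4:13709171-13709420 (minus strand) for RD26, chr1:26121830-26122079 (plus strand) for NAP and chr5:4196006-4196255 (plus strand) for VNI2. The VNI2 window overlaps the annotated non-coding transcript AT5G00390.
NAC019: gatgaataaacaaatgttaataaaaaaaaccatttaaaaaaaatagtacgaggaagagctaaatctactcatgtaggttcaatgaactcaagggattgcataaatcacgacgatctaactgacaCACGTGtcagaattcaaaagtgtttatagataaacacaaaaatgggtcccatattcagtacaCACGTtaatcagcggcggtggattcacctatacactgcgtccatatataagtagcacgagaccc
RD26: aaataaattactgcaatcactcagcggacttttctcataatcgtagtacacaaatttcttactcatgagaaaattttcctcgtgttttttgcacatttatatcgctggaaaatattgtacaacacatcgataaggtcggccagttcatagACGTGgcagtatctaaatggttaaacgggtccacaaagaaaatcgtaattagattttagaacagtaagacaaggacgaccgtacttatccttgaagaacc
NAP: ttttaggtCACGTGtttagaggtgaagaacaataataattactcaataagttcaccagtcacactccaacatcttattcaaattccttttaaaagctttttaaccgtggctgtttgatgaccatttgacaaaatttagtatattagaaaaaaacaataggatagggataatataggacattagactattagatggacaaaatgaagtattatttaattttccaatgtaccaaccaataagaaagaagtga
VNI2: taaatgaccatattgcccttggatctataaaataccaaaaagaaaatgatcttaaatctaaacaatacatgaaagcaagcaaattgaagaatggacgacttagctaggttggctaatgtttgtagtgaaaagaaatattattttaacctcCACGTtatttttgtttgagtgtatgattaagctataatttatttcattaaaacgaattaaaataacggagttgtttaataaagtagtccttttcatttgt

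ORE1 is the member with a known small RNA partner. miR164 lowers ORE1 transcript in young leaves, and its decline with age releases ORE1. The mature miR164c-5p and its best match in ORE1 are shown because ORE1 levels are then the outcome of both making and cutting the transcript, which counts of reads cannot tell apart. Capitals in the miRNA mark the seed (bases 2 to 8), and capitals in the site mark the 18 of 21 bases that match its exact complement. Pairs of G with U were counted as mismatches. The site lies at chr5:15858797-15858817 on the minus strand. Only annotated coding sequences were searched, and in the other 9 genes the best window had 8 to 10 mismatches. The miRNA itself was not measured.
miR164c-5p: tGGAGAAGcagggcacgtgcg
ORE1 site: CtCACGTGaCCTGCTTCTCCg

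Between 4716155 and 9506727 reads per library fell on genes, so that 3 reads equal 0.316 to 0.636 CPM (counts scaled to library size). Levels below are CPM with TMM scaling, log2 fold changes come with their standard error (SE), and adjusted p-values are from edgeR's quasi-likelihood test with Benjamini-Hochberg adjustment over the 17678 genes that passed a filter on low counts, with a threshold of 0.05. All 10 genes passed. Reads lie near the 3′ ends of transcripts, and levels are compared within a gene and not between genes. JAR1 averaged 2.87 ± 1.19 CPM in jar1-11 drought and 5.69 ± 0.804 CPM in jar1-11 control libraries, against 32.9 ± 7.40 CPM in WT drought and 25.3 ± 4.18 CPM in WT control libraries (SD, n = 3 each). JAR1-OE had 33.5 ± 5.02 CPM of JAR1 under drought and 23.8 ± 3.27 CPM with water, not called different from WT (0.03 ± 0.21, adjusted p = 0.957, and -0.10 ± 0.21, adjusted p = 0.814). How reads were divided between JAR1 and the transgene's own entry is unknown. The YFP-JAR1 entry had reads in all 6 JAR1-OE libraries and 0 in the other 12. Of the 3 libraries in each group, WT control 1, jar1-11 drought 2 and WT drought 1 stood apart. The chi-square of counts against the other replicates, divided by its degrees of freedom, was 26.8 and 27.9, 23.3 and 20.6, and 11.7 and 18.9, where the remaining pairs gave 6.53, 5.72 and 9.94. JAR1-OE drought 2 was also apart from its replicates (13.3 and 10.8, against 7.94 for the remaining pair). Its flower marker sum was 40.8 CPM, against 12.5 and 17.7 CPM in the other JAR1-OE drought libraries. Without it, 6 of the 10 genes were called for drought in JAR1-OE and 2 for JAR1-OE against WT under drought, as with it, but 6 in place of 8 for JAR1-OE against jar1-11 and 0 in place of 1 for the difference of response between JAR1-OE and WT. Over all genes, the same 4 numbers without it were 4221, 2135, 8696 and 624 of 18007. With it they were 5140, 2814, 9452 and 1062 of 17678. WT drought 1 also held flower transcripts. The summed level of 7 flower markers was 40.8 CPM there, against 0.251 and 0.302 CPM in the other WT drought libraries, and it was 12.5 to 40.8 CPM in JAR1-OE drought, 0.895 to 1.63 CPM in jar1-11 drought with AP1 at 0, and 1.62 to 5.75 CPM in the control libraries, with SEP2 at 0 in jar1-11 control. The sum of 3 root markers was 0 in jar1-11, 8.85 to 12.3 CPM in JAR1-OE drought, 27.0 to 129 CPM in JAR1-OE control, 0 to 2.23 CPM in WT drought and 2.01 to 8.08 CPM in WT control, with RHD6 at 0 in every library. The sum of 4 leaf markers (RBCS1A, RCA, CA1 and LHCB4.1, all with reads in every group) was 558 to 838 CPM in jar1-11 drought and 6309 to 7561 CPM in jar1-11 control. It was 5574 to 8072 CPM in JAR1-OE drought and 12568 to 15868 CPM in JAR1-OE control, and 1858 to 2605 CPM in WT drought and 7149 to 8347 CPM in WT control. These marker levels move with genotype and condition, and their part in the results below was not tested.

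Most of these NAC transcripts were higher under drought, with the highest count in jar1-11. In jar1-11, 9 of the 10 rose and none fell, where 58.4% of all genes tested were called, 28.7% higher and 29.7% lower. In JAR1-OE, 5 rose and 1 fell, where 29.1% of all genes were called, 14.1% higher and 15.0% lower. In WT, 6 rose and 1 fell, where 39.3% of all genes were called, 18.1% higher and 21.1% lower. NAC019, RD26, ATAF1, NAC102 and NAP rose in all 3 genotypes, and VNI2 was the one that fell in JAR1-OE and WT. The median log2 fold change of the 10 was 2.41 in jar1-11, 1.04 in JAR1-OE and 0.79 in WT, where the median of all genes tested lay between -0.01 and 0.01. Without jar1-11 drought 2 the count in jar1-11 was 8, with NAC016 no longer called. The WT count was 5 without WT control 1, with NAC102 and ORE1 no longer called, and 7 without WT drought 1. It was 4 without WT drought 3, which also ended the call for NAP. Over all genes, 9237 of 17976 were called in jar1-11 without jar1-11 drought 2, against 10319 of 17678 with all libraries. In WT 6943 of 17678 were called with all libraries and 6566 of 18087 without WT control 1. The WT number was 6706 of 18019 without WT drought 1 and 5661 of 18097 without WT drought 3.

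**Figure D1:**
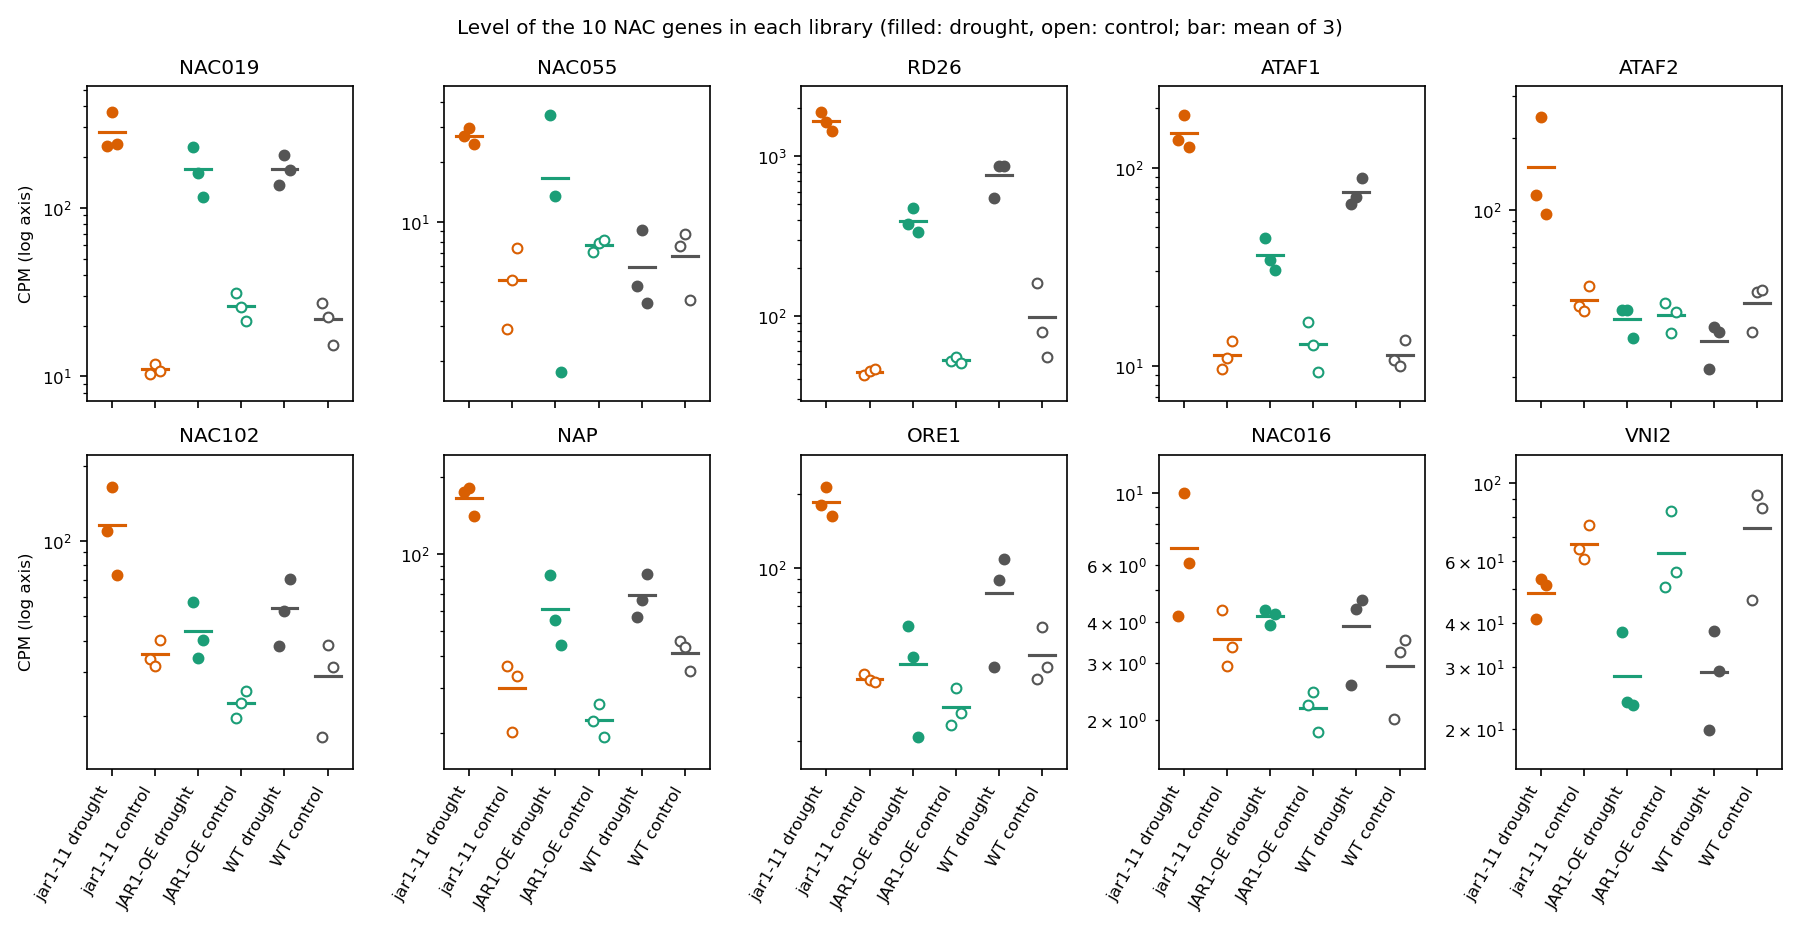
Level of each of the 10 NAC genes (CPM with TMM scaling, log axis, a different range in each panel) in the 18 libraries. Each point is 1 library, filled for drought and open for control, and bars are group means of 3. The jar1-11 drought libraries lie highest in the panels of NAC019, RD26, ATAF1, ATAF2, NAC102, NAP and ORE1, where they do not overlap any other group.

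Within the relatives of NAC019, RD26 (AT4G27410, chromosome 4, 13707192 to 13709170), an activator of dehydration and ABA responses that is also called ANAC072, showed the widest range. It had 1904, 1640 and 1449 CPM in the jar1-11 drought libraries, against 42.7, 45.1 and 46.3 CPM in jar1-11 control libraries. JAR1-OE had 374, 472 and 334 CPM under drought, against 52.2, 55.6 and 50.7 CPM with water. In WT it stood at 550, 871 and 870 CPM under drought, against 161, 79.4 and 55.6 CPM with water. No neighbouring groups overlapped in the order of the means, which ran from jar1-11 drought through WT drought, JAR1-OE drought, WT control and JAR1-OE control to jar1-11 control. The drought response was a log2 fold change of 5.22 ± 0.32 in jar1-11 (37.2-fold, adjusted p = 2.1e-10), of 2.90 ± 0.29 in JAR1-OE (7.44-fold, adjusted p = 6.01e-07) and of 2.96 ± 0.29 in WT (7.76-fold, adjusted p = 2.06e-07). WT control 1 was the highest of the WT control libraries for RD26, and without it the WT response was 3.50 (adjusted p = 7.22e-09).

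NAC019 (AT1G52890, chromosome 1, 19696923 to 19698482) had 232, 368 and 240 CPM in jar1-11 drought libraries, against 10.3, 11.8 and 10.7 CPM in jar1-11 control libraries. In JAR1-OE the values were 230, 161 and 116 CPM under drought, against 31.2, 25.8 and 21.2 CPM with water. WT libraries had 136, 207 and 168 CPM under drought, against 27.2, 22.6 and 15.4 CPM with water. The 3 drought groups lay above the 3 control groups without overlap. JAR1-OE drought overlapped WT drought and, at 230 CPM in 1 library, nearly reached the lowest jar1-11 library, whereas jar1-11 control was below both other control groups. NAC019 rose by 4.67 ± 0.29 in jar1-11 (adjusted p = 2.45e-10), by 2.70 ± 0.27 in JAR1-OE (adjusted p = 4.44e-07) and by 2.98 ± 0.27 in WT (adjusted p = 7.46e-08) on the log2 scale.

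NAC055 (AT3G15500, chromosome 3, 5234457 to 5236196), the third of these relatives, was low and uneven. Levels were 27.2, 29.9 and 24.6 CPM in jar1-11 drought, against 2.90, 5.11 and 7.38 CPM in jar1-11 control. JAR1-OE drought libraries had 34.7, 13.5 and 1.77 CPM, against 7.12, 7.84 and 8.13 CPM in JAR1-OE control. In WT drought there were 4.80, 9.16 and 3.92 CPM, against 7.58, 8.73 and 4.07 CPM in WT control. The JAR1-OE drought libraries thus ran from the lowest to the highest of all 18, and the lowest held 13 reads. NAC055 rose in jar1-11 (log2 fold change 2.45 ± 0.60, adjusted p = 0.00184). The value was 1.12 ± 0.58 in JAR1-OE (adjusted p = 0.16) and -0.15 ± 0.63 in WT (adjusted p = 0.876, 95% interval -1.48 to 1.18). Without JAR1-OE drought 3 the JAR1-OE value was 1.65 and was called (adjusted p = 0.00555).

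Of the ATAF subfamily, ATAF1 (AT1G01720, chromosome 1, 267993 to 269819), a drought-induced activator of senescence that acts on ORE1 and represses the chloroplast regulator GLK1, was higher under drought in every genotype. It reached 138, 186 and 127 CPM in jar1-11 drought, against 9.62, 11.0 and 13.4 CPM in jar1-11 control. JAR1-OE drought libraries had 44.5, 34.2 and 30.5 CPM, against 16.6, 12.7 and 9.31 CPM in JAR1-OE control. WT drought libraries had 66.0, 71.3 and 89.0 CPM, against 10.7, 10.0 and 13.5 CPM in WT control. The 3 control groups overlapped each other, and the 3 drought groups did not overlap each other or any control group. The rise was 3.74 ± 0.23 on the log2 scale in jar1-11 (13.4-fold, adjusted p = 2.24e-10), 1.5 ± 0.22 in JAR1-OE (2.83-fold, adjusted p = 5.23e-05) and 2.72 ± 0.23 in WT (6.57-fold, adjusted p = 2.78e-08). ATAF1 shares 28 annotated bases with AT1G01725 and 344 with a non-coding RNA. No source used here says whether the counting used strand, and reads of overlapping genes may be mixed for ATAF1, ATAF2, NAC102 and VNI2.

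ATAF2 (AT5G08790, chromosome 5, 2858849 to 2860558), which is induced by wounding and pathogens and promotes chlorophyll breakdown, passed the test for drought in jar1-11 and not in the other 2 genotypes. Its levels were 116, 244 and 96.6 CPM in jar1-11 drought, against 39.7, 37.8 and 48.3 CPM in jar1-11 control. JAR1-OE had 38.2, 38.0 and 29.1 CPM under drought, against 41.0, 30.5 and 37.6 CPM with water. WT had 21.6, 32.3 and 30.8 CPM under drought, against 31.0, 45.3 and 46.3 CPM with water. Among the other 5 groups, each overlapped its neighbour in the order of means, and jar1-11 drought lay above them all. The log2 fold change was 1.86 ± 0.27 in jar1-11 (adjusted p = 1.2e-05), -0.05 ± 0.27 in JAR1-OE (adjusted p = 0.908, 95% interval -0.63 to 0.52) and -0.54 ± 0.28 in WT (adjusted p = 0.136, 95% interval -1.12 to 0.05). The library jar1-11 drought 2 was the highest, and without it the jar1-11 value was 1.34 (adjusted p = 3e-05).

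NAC102 (AT5G63790, chromosome 5, 25526509 to 25528281), known for a role in seeds under low oxygen, ranged from 72.9 to 164 CPM in jar1-11 drought, against 31.8 to 40.2 CPM in jar1-11 control. It ranged from 34.1 to 57.2 CPM in JAR1-OE drought, against 19.6 to 25.3 CPM in JAR1-OE control. The ranges in WT were 38.0 to 70.6 CPM under drought, against 16.5 to 38.6 CPM with water, and these overlapped. NAC102 rose by 1.72 ± 0.30 on the log2 scale in jar1-11 (adjusted p = 8.51e-05), by 0.97 ± 0.31 in JAR1-OE (adjusted p = 0.0234) and by 0.89 ± 0.30 in WT (adjusted p = 0.0265). Leaving out WT control 1 took the WT value to 0.62 (adjusted p = 0.117), and WT drought 2 or WT drought 3 also ended that call (adjusted p = 0.0503 and 0.141). The JAR1-OE call ended without JAR1-OE control 1 (adjusted p = 0.0893), control 2 (adjusted p = 0.0602) or drought 1 (adjusted p = 0.122).

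Among the senescence activators, NAP (AT1G69490, chromosome 1, 26122080 to 26123514), which turns on the ABA synthesis gene AAO3 and the phosphatase gene HAI1, had 175, 182 and 141 CPM in jar1-11 drought, against 36.7, 20.2 and 33.4 CPM in jar1-11 control. In JAR1-OE it had 82.7, 55.6 and 44.2 CPM under drought, against 22.3, 26.0 and 19.4 CPM with water. WT showed 56.9, 66.4 and 84.0 CPM under drought, against 45.7, 43.3 and 35.0 CPM with water. Drought and control did not overlap in any genotype, and jar1-11 drought was above all other libraries. NAP rose by 2.46 ± 0.24 on the log2 scale in jar1-11 (adjusted p = 8.51e-08), by 1.44 ± 0.24 in JAR1-OE (adjusted p = 0.000191) and by 0.74 ± 0.24 in WT (adjusted p = 0.0171). Dropping WT control 3 or WT drought 3 ended the NAP call in WT (0.64, adjusted p = 0.0709, and 0.58, adjusted p = 0.0921).

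ORE1 (AT5G39610, chromosome 5, 15858398 to 15859911), the activator of nuclease and other senescence genes that carries the miR164 site shown above, had 180, 213 and 163 CPM in jar1-11 drought, against 37.3, 35.4 and 34.5 CPM in jar1-11 control. In JAR1-OE there were 58.5, 43.7 and 20.7 CPM under drought, against 23.3, 32.9 and 26.0 CPM with water. WT had 39.7, 89.9 and 109 CPM under drought, against 35.5, 57.7 and 40.0 CPM with water. Drought and control libraries overlapped in JAR1-OE and in WT and lay far apart in jar1-11. ORE1 rose by 2.37 ± 0.33 in jar1-11 (adjusted p = 7.19e-06) and by 0.84 ± 0.33 in WT (adjusted p = 0.0472), and its value in JAR1-OE was 0.58 ± 0.33 (adjusted p = 0.203), all on the log2 scale. The WT call was at the edge of the threshold. Dropping WT control 1 gave 0.71 (adjusted p = 0.143), WT control 3 gave 0.78 and WT drought 2 gave 0.76 (adjusted p = 0.123 each), and WT drought 3 gave 0.55 (adjusted p = 0.24). The call also ended under RLE scaling (adjusted p = 0.0502), in limma-voom (adjusted p = 0.0822) and in a fit of the WT libraries alone (adjusted p = 0.0878). In JAR1-OE the rise was called without drought 3 (0.90, adjusted p = 0.041).

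NAC016 (AT1G34180, chromosome 1, 12448543 to 12451287), which acts upstream of NAP in senescence, was covered by 9 to 74 reads a library. It ranged from 4.18 to 10.0 CPM in jar1-11 drought, against 2.92 to 4.34 CPM in jar1-11 control. It ranged from 3.91 to 4.35 CPM in JAR1-OE drought, against 1.84 to 2.44 CPM in JAR1-OE control, and from 2.57 to 4.68 CPM in WT drought, against 2.01 to 3.51 CPM in WT control. Its neighbours in the order of group means overlapped throughout. NAC016 rose in jar1-11 (log2 fold change 0.93 ± 0.32, adjusted p = 0.0189), and that call ended without jar1-11 drought 2 (0.50, adjusted p = 0.221), control 2 (0.81, adjusted p = 0.0736) or control 3 (0.89, adjusted p = 0.0511). The values were 0.95 ± 0.35 in JAR1-OE (adjusted p = 0.0504) and 0.39 ± 0.35 in WT (adjusted p = 0.393). The JAR1-OE value was called under upper-quartile scaling (0.97, adjusted p = 0.0395), library totals (1.01, adjusted p = 0.036) and in a fit of the JAR1-OE libraries alone (0.96, adjusted p = 0.0335).

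VNI2 (AT5G13180, chromosome 5, 4196256 to 4197940), a repressor of the vessel regulator VND7 that also delays leaf ageing and acts on COR and RD genes, went the other way. It had 41.0, 53.2 and 51.3 CPM in jar1-11 drought, against 65.0, 60.9 and 75.8 CPM in jar1-11 control. JAR1-OE drought libraries had 37.8, 23.8 and 23.4 CPM, against 50.7, 83.1 and 55.7 CPM in JAR1-OE control. WT drought libraries had 19.9, 37.9 and 29.3 CPM, against 46.6, 92.6 and 84.6 CPM in WT control. Drought lay below control without overlap in each genotype. VNI2 fell by 1.15 ± 0.27 on the log2 scale in JAR1-OE (adjusted p = 0.00344) and by 1.36 ± 0.27 in WT (adjusted p = 0.000564). The value in jar1-11 was -0.47 ± 0.27 (adjusted p = 0.136, 95% interval -1.03 to 0.09), and it was called lower in a fit of the jar1-11 libraries alone (-0.50, adjusted p = 0.0162).

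**Figure D2:**
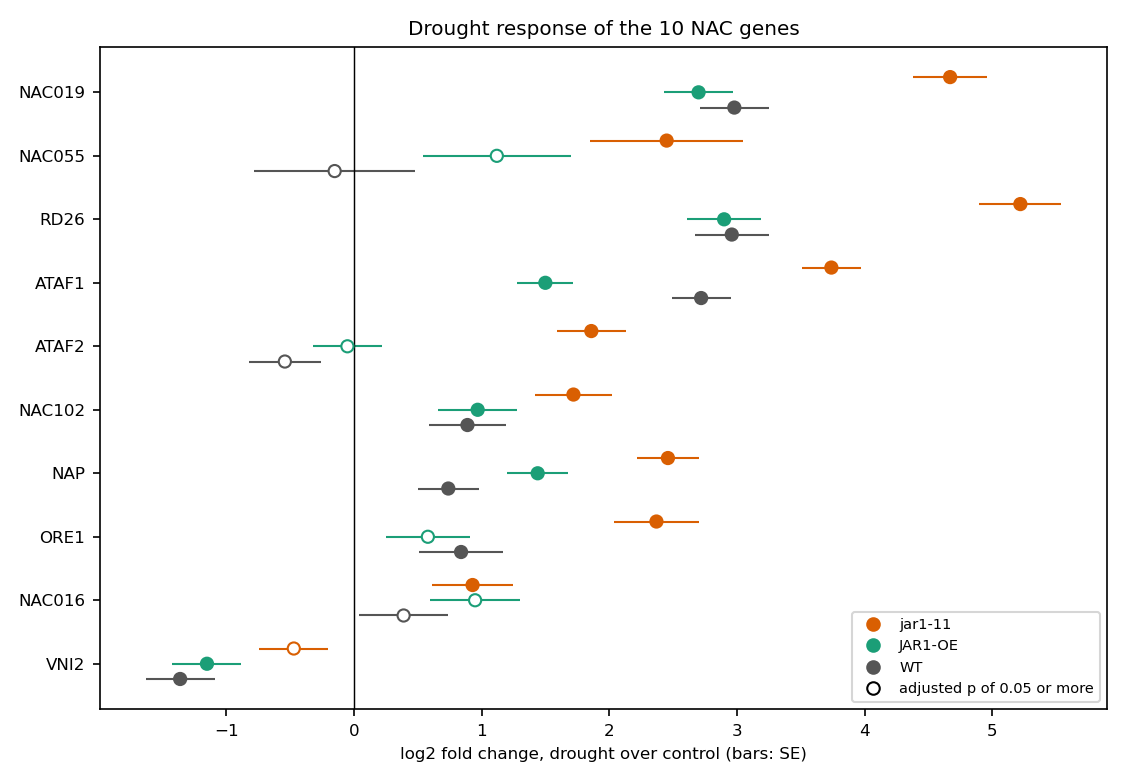
Log2 fold change of drought over control for each of the 10 NAC genes in jar1-11, JAR1-OE and WT. Points are fitted values, bars are SEs, and open points did not pass an adjusted p of 0.05. For every gene except NAC016 the jar1-11 point lies farthest right, with RD26 at 5.22 and NAC019 at 4.67.

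The drought response differed between jar1-11 and WT for 6 of the 10 genes, each higher in jar1-11, where 15.6% of all genes tested were called, 6.99% with a higher and 8.63% with a lower response in jar1-11. Of the 2761 genes called 1235 were higher, against 973 of 3025 under upper-quartile scaling and 911 of 3013 under library totals. The difference of log2 fold changes was 2.40 ± 0.39 for ATAF2 (adjusted p = 0.00117), 2.26 ± 0.39 for RD26 (adjusted p = 0.00168), 1.72 ± 0.33 for NAP (adjusted p = 0.00317) and 1.69 ± 0.37 for NAC019 (adjusted p = 0.00653). It was smaller in size for ORE1, at 1.53 ± 0.46 (adjusted p = 0.0299), and for ATAF1, at 1.02 ± 0.31 (adjusted p = 0.0334). NAC055 had the largest value but also the largest SE (2.60 ± 0.87, adjusted p = 0.0503). VNI2 (0.89 ± 0.38, adjusted p = 0.115), NAC102 (0.83 ± 0.42, adjusted p = 0.192) and NAC016 (0.53 ± 0.47, adjusted p = 0.471) did not pass. The median over the 10 genes was 1.61, against -0.02 over all genes tested. Without jar1-11 drought 2 or without WT drought 1, 4 of the 6 were called, and those that dropped out were ATAF1 (0.83, adjusted p = 0.104, and 0.91, adjusted p = 0.0866) and ORE1 (1.41, adjusted p = 0.0785, and 1.19, adjusted p = 0.0646). Over all genes, 1458 of 17976 and 1704 of 18019 were called in these 2 fits, against 2761 of 17678 with all libraries. Without WT control 1, where RD26 was high, the RD26 difference was 1.72 (adjusted p = 0.00135), and VNI2 joined the 6 (1.13, adjusted p = 0.0336). ATAF1 was also not called without WT control 3, WT drought 2, jar1-11 control 1 or jar1-11 control 2 (adjusted p = 0.0986, 0.072, 0.0929 and 0.0755), nor with all libraries scaled by their totals (0.86, adjusted p = 0.0618) or under the replicate block (1.02, adjusted p = 0.0513). ORE1 was also not called without WT control 2 or any 1 of the jar1-11 control libraries (adjusted p = 0.0844, 0.0575, 0.0656 and 0.0557). NAC055 was called without WT control 3, WT drought 2 or jar1-11 control 3 (adjusted p = 0.0472, 0.0434 and 0.0483). With all libraries NAC055 was also called in DESeq2 (adjusted p = 0.02), in a fit of only the groups compared (adjusted p = 0.0099), with no filter (adjusted p = 0.0346) and under RLE scaling (adjusted p = 0.0493), all at values of 2.57 to 2.60.

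Between JAR1-OE and WT the response differed for 1 gene of the 10, ATAF1, which rose less in JAR1-OE (difference of log2 fold changes -1.21 ± 0.32, adjusted p = 0.0289). Of all genes tested 6.01% were called, 1.75% with a lower and 4.25% with a higher response in JAR1-OE. The call ended in 6 of the 12 fits that left out 1 library, which were those without WT control 1 (-1.17, adjusted p = 0.058), WT drought 3 (-1.08, adjusted p = 0.0788), JAR1-OE control 1 (-0.98, adjusted p = 0.0981), JAR1-OE control 2 (-1.22, adjusted p = 0.0512), JAR1-OE drought 2 (-1.17, adjusted p = 0.0657) and JAR1-OE drought 3 (-1.10, adjusted p = 0.0659). It held without WT drought 1 (-1.31, adjusted p = 0.021). The 95% interval of the difference was -1.04 to 0.48 for NAC019, -0.87 to 0.75 for RD26 and -1.23 to 0.71 for ORE1, none of them called. NAP had 0.69 ± 0.34 (adjusted p = 0.221).

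Under drought, jar1-11 stood above WT for 9 of the 10 genes and below it for none, where 34.5% of all genes tested were called, 16.6% higher and 17.9% lower in jar1-11. That split over all genes depends on the scaling, with 2942 of 6105 called genes higher here, 2230 of 6294 under upper-quartile scaling and 2218 of 6263 under library totals. ATAF2 was 2.43 ± 0.28 higher on the log2 scale (adjusted p = 1.67e-05), NAC055 2.17 ± 0.59 (adjusted p = 0.00831) and NAP 1.27 ± 0.23 (adjusted p = 0.000513). ORE1 was 1.22 ± 0.32 higher (adjusted p = 0.00679), RD26 1.12 ± 0.27 (adjusted p = 0.00395), NAC102 1.11 ± 0.30 (adjusted p = 0.00757) and ATAF1 1.00 ± 0.20 (adjusted p = 0.00122). The smallest called values were those of VNI2 (0.73 ± 0.27, adjusted p = 0.0434) and NAC019 (0.71 ± 0.25, adjusted p = 0.0307), and NAC016 did not pass (0.80 ± 0.32, adjusted p = 0.0612). NAP and ORE1, which promote senescence, and VNI2, which delays it, were thus all higher in jar1-11 than in WT. Without jar1-11 drought 2 the count was 6, with NAC019 at 0.45 (adjusted p = 0.209), NAC102 at 0.76 (adjusted p = 0.0782) and VNI2 at 0.64 (adjusted p = 0.146). Leaving out WT drought 1 also gave 6, and the same 3 genes fell short (adjusted p = 0.145, 0.0508 and 0.216). Calls over all genes fell as well, from 6105 of 17678 with all libraries. They were 3737 of 17976 without jar1-11 drought 2 and 4228 of 18019 without WT drought 1. Without WT drought 3 NAC019 and VNI2 were not called (adjusted p = 0.0679 and 0.0825), nor was VNI2 without jar1-11 drought 1 or 3 (adjusted p = 0.0522 and 0.0912), whereas NAC016 was called without jar1-11 drought 1 (1.03, adjusted p = 0.0229). NAC019 and VNI2 also fell short when libraries were scaled by the upper quartile (0.57, adjusted p = 0.0654, and 0.60, adjusted p = 0.0907) or by their totals (0.57, adjusted p = 0.0645, and 0.60, adjusted p = 0.102).

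JAR1-OE under drought stood below WT for ATAF1 (-1.05 ± 0.21, adjusted p = 0.00202) and RD26 (-0.96 ± 0.27, adjusted p = 0.0212) and above it for none of the 10, where 15.9% of all genes tested were called, 5.84% lower and 10.1% higher (1781 higher of 2814 called, and 1461 of 2882 when libraries were scaled by their totals). ORE1 had the same size of difference as RD26 (-0.96 ± 0.32, adjusted p = 0.0513). It was called in 7 of the alternative fits, among them DESeq2 (-0.98, adjusted p = 0.0288) and the fit without WT drought 1 (-1.32, adjusted p = 0.00357). The RD26 call ended without WT drought 2 (adjusted p = 0.0667), WT drought 3 (adjusted p = 0.0889), JAR1-OE drought 1 (adjusted p = 0.0764) or JAR1-OE drought 3 (adjusted p = 0.0879), with values between -0.92 and -0.86. NAC055 was at 1.46 ± 0.59 (adjusted p = 0.102), and at 2.00 (adjusted p = 0.00314) without JAR1-OE drought 3. The other 6 genes had values between -0.29 and 0.31.

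**Figure D3:**
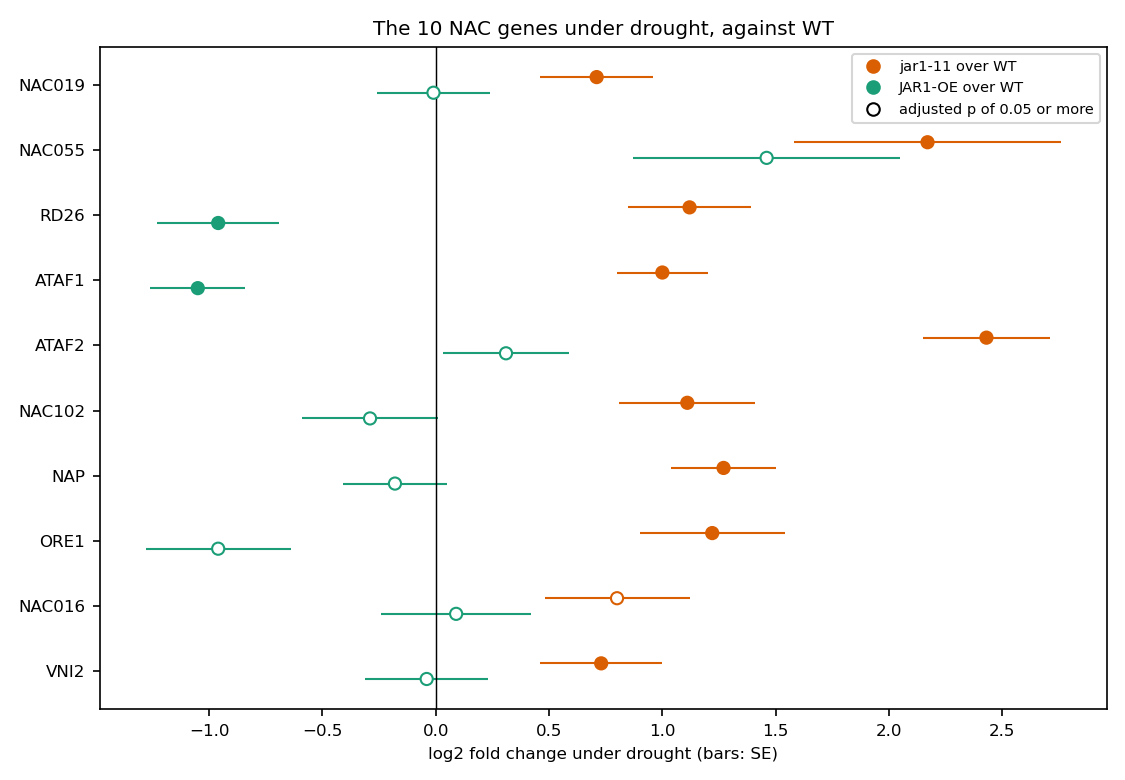
Log2 fold change of jar1-11 over WT and of JAR1-OE over WT in the drought libraries, for each of the 10 NAC genes. Points are fitted values, bars are SEs, and open points did not pass an adjusted p of 0.05. All jar1-11 points lie right of 0, between 0.71 and 2.43, and the JAR1-OE points of RD26, ATAF1 and ORE1 lie near -1.

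Set directly against each other under drought, JAR1-OE was below jar1-11 for 8 of the 10 genes, where 53.5% of all genes tested were called, 25.3% lower and 28.2% higher. ORE1 (-2.18 ± 0.33, adjusted p = 2.68e-05), ATAF2 (-2.12 ± 0.28, adjusted p = 5.27e-06), RD26 (-2.08 ± 0.28, adjusted p = 7.04e-06) and ATAF1 (-2.05 ± 0.21, adjusted p = 3.81e-07) had the largest differences. NAP (-1.45 ± 0.23, adjusted p = 4.74e-05) and NAC102 (-1.40 ± 0.30, adjusted p = 0.000688) followed. VNI2 (-0.77 ± 0.27, adjusted p = 0.0229) and NAC019 (-0.73 ± 0.25, adjusted p = 0.0182) were the smallest called, and both calls ended without jar1-11 drought 2 (-0.72, adjusted p = 0.0646, and -0.50, adjusted p = 0.106), without JAR1-OE drought 2 (adjusted p = 0.0857 and 0.0537) or without JAR1-OE drought 3 (adjusted p = 0.0926 and 0.105). The VNI2 call also ended without jar1-11 drought 3 (adjusted p = 0.0547), and NAC016 was called without jar1-11 drought 1 (-0.97, adjusted p = 0.0182). NAC016 (-0.71 ± 0.32, adjusted p = 0.0686) and NAC055 (-0.70 ± 0.54, adjusted p = 0.286) did not pass. Without JAR1-OE drought 1, its highest library for NAC055, that gene stood at -1.86 (adjusted p = 0.00831), and limma-voom with all libraries also called it, at -1.53 (adjusted p = 0.0336).

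With water, the jar1-11 and WT levels of the 10 genes were not called different in any case, where 0.00566% of all genes tested were called, which is JAR1 itself. The count was 0 also in DESeq2 and limma-voom. At an unadjusted p under 0.05, 2 genes were lower in jar1-11 by each of the 3 tools, all of which read the same counts. They were RD26 (-1.14 ± 0.28, adjusted p = 0.499, 95% interval -1.73 to -0.55) and NAC019 (-0.98 ± 0.28, adjusted p = 0.867, 95% interval -1.56 to -0.39). For both, the 3 jar1-11 control libraries lay below the 3 WT control libraries. Without WT control 1 the values were -0.59 for RD26 and -0.79 for NAC019 (adjusted p = 0.944 each).

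JAR1-OE with water was below WT for NAP (-0.87 ± 0.24, adjusted p = 0.0292) and RD26 (-0.90 ± 0.28, adjusted p = 0.0469), where 10.5% of all genes tested were called, 4.96% lower and 5.56% higher (983 higher of 1859 called, and 672 of 2002 when libraries were scaled by their totals). Without WT control 1 neither was called (NAP -0.80, adjusted p = 0.0883, and RD26 -0.35, adjusted p = 0.357). Both calls also ended without JAR1-OE control 1 (adjusted p = 0.106 and 0.143) or JAR1-OE control 3 (adjusted p = 0.125 and 0.141). Over all genes, 976 of 18087 were called without WT control 1. The number was 556 of 17977 without JAR1-OE control 1 and 649 of 17984 without JAR1-OE control 3. Without WT control 2 the NAP call ended (adjusted p = 0.052), and without JAR1-OE control 2 the RD26 call did (adjusted p = 0.0807). The replicate block, in which libraries of the same number share a term, left the NAP call and took RD26 to an adjusted p of 0.0708. ORE1 was at -0.70 ± 0.33 (adjusted p = 0.183).

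In the order of group means, jar1-11 drought was the highest of the 3 drought groups for all 10 genes, as it was for 41.1% of all genes tested. It was the highest of all 6 groups for 9 genes, VNI2 being the exception, against 32.9% of all genes tested. For 7 genes (NAC019, RD26, ATAF1, NAC102, NAP, ORE1 and VNI2) the drought means ran from jar1-11 through WT down to JAR1-OE, which held for 29.7% of all genes tested, and JAR1-OE was the lowest of the 3 drought groups for these same 7, against 37.5% of all genes tested. For NAC019 the mean was 169 CPM in JAR1-OE against 170 CPM in WT, and for VNI2 it was 28.3 CPM in JAR1-OE against 29.0 CPM in WT, both well within the spread of the libraries. Among these 7, jar1-11 did not overlap WT in any, whereas WT and JAR1-OE were separate for RD26 and ATAF1 alone.

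The other NAC genes of the genome gave 90 further entries, of which 41 passed the filter. Under drought, 23 rose and 3 fell in jar1-11, 7 rose and none fell in JAR1-OE, and 10 rose and 6 fell in WT. Over all genes tested, 28.7% rose and 29.7% fell in jar1-11, 14.1% and 15.0% in JAR1-OE, 18.1% and 21.1% in WT. The median log2 fold change of the 41 was 0.78 in jar1-11, 0.33 in JAR1-OE and 0.27 in WT, below the 2.41, 1.04 and 0.79 of the 10 genes. NAC032, another gene of the ATAF subfamily, rose by 4.57 ± 0.26 in jar1-11 (adjusted p = 6.71e-11), by 2.27 ± 0.26 in JAR1-OE (adjusted p = 3.08e-06) and by 4.26 ± 0.28 in WT (adjusted p = 9.98e-10) on the log2 scale. Like ATAF1, it rose less in JAR1-OE than in WT (difference -1.99 ± 0.39, adjusted p = 0.00582). NAC089, a membrane-tethered factor, rose in all 3 genotypes, by 2.72 ± 0.19, 2.37 ± 0.19 and 2.11 ± 0.19 in the same order (adjusted p = 8.64e-10, 4.04e-08 and 4.45e-08). NAC041 fell in jar1-11 (-2.68 ± 0.20, adjusted p = 2.33e-09) and in WT (-1.58 ± 0.19, adjusted p = 2.08e-06). Set against WT under drought, 18 of the 41 were higher and 1 lower in jar1-11, and 1 was higher and 6 lower in JAR1-OE. Over all genes tested, 16.6% were higher and 17.9% lower in jar1-11, and 10.1% higher and 5.84% lower in JAR1-OE. JUB1, a NAC factor that delays senescence, was 3.81 ± 0.65 higher in jar1-11 than in WT (adjusted p = 0.000283), and ANAC046, a promoter of senescence, had the smallest p for the difference of response between jar1-11 and WT (1.82 ± 0.42, adjusted p = 0.00867).

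Transcripts of 11 regulators known to act upstream of these genes moved in both directions in jar1-11 and WT. In jar1-11, 4 rose and 3 fell with drought, in JAR1-OE 7 rose and none fell, and in WT 5 rose and 2 fell. Over all genes tested, 28.7% rose and 29.7% fell in jar1-11, 14.1% and 15.0% in JAR1-OE, 18.1% and 21.1% in WT. ABF2, a factor that binds the ABA-responsive element, rose by 3.47 ± 0.23 in jar1-11 (adjusted p = 4.22e-10), by 2.77 ± 0.23 in JAR1-OE (adjusted p = 4.8e-08) and by 2.78 ± 0.22 in WT (adjusted p = 1.37e-08). ABF3, ABF4 and ABI5 were also called higher in each genotype. MYC2 was at 45.9 ± 2.37 CPM in jar1-11 drought, 250 ± 78.0 CPM in JAR1-OE drought and 128 ± 49.8 CPM in WT drought (SD, n = 3 each). It was lower in jar1-11 than in WT (-1.48 ± 0.25, adjusted p = 0.000285) and higher in JAR1-OE than in WT (0.97 ± 0.24, adjusted p = 0.0108), the reverse of the order seen for RD26 and ATAF1. Its relative MYC4 fell with drought in jar1-11 (-2.28 ± 0.23, adjusted p = 9.67e-08) and in WT (-1.25 ± 0.21, adjusted p = 0.000111) and rose in JAR1-OE (0.57 ± 0.21, adjusted p = 0.0489). Under drought 6 of the 11 were lower and none higher in jar1-11 than in WT, and 2 were higher and 1 lower in JAR1-OE than in WT. Over all genes tested, 17.9% were lower and 16.6% higher in jar1-11, and 10.1% higher and 5.84% lower in JAR1-OE. PIF4 and PIF5, transcription factors that promote ORE1 in darkness, were among the 6 lower in jar1-11, at -1.24 ± 0.23 (adjusted p = 0.000569) and -1.70 ± 0.31 (adjusted p = 0.000533).

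A list of 21 genes reported as targets of these factors was mostly higher under drought. In jar1-11 14 rose and 3 fell, in JAR1-OE 11 rose and none fell, and in WT 13 rose and 3 fell. Over all genes tested, 28.7% rose and 29.7% fell in jar1-11, 14.1% and 15.0% in JAR1-OE, 18.1% and 21.1% in WT. The median log2 fold change of the 21 was 1.44 in jar1-11, also with the gene that had 0 reads in a group set to its bound, 1.05 in JAR1-OE and 1.29 in WT. HAI1, the PP2C phosphatase gene that NAP activates, averaged 575 ± 39.3 CPM in jar1-11 drought against 3.80 ± 2.19 CPM in jar1-11 control, and 129 ± 7.32 CPM in JAR1-OE drought against 3.96 ± 2.08 CPM in JAR1-OE control. In WT it averaged 364 ± 66.8 CPM under drought against 4.89 ± 1.93 CPM with water (SD, n = 3 each). It was lower in JAR1-OE than in WT under drought (-1.49 ± 0.31, adjusted p = 0.00255), and its value in jar1-11 against WT was 0.66 ± 0.30 (adjusted p = 0.0968). AAO3, the last step of ABA synthesis, was at 49.9 ± 2.14 CPM in jar1-11 drought, 11.5 ± 1.2 CPM in JAR1-OE drought and 20.4 ± 8.21 CPM in WT drought, higher than WT in jar1-11 (1.29 ± 0.22, adjusted p = 0.000314) and lower than WT in JAR1-OE (-0.83 ± 0.23, adjusted p = 0.0203). ERD1, a chloroplast protease regulator whose promoter NAC019, NAC055 and RD26 bind, was 1.02 ± 0.17 higher in jar1-11 than in WT (adjusted p = 0.00023) and 0.54 ± 0.17 lower in JAR1-OE (adjusted p = 0.0348).

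HAI1, AAO3 and ERD1 ran from jar1-11 through WT down to JAR1-OE under drought, an order that held for 29.7% of all genes tested. Some other targets, LOX2 among them, did not, and the number of the 21 in that order was not counted. LOX2, a jasmonate synthesis gene, averaged 4.29 ± 2.39 CPM in jar1-11 drought, 1151 ± 304 CPM in JAR1-OE drought and 107 ± 72.2 CPM in WT drought. COR15B, which VNI2 binds, fell with drought in jar1-11 (-3.20 ± 0.28, adjusted p = 1.97e-08) and WT (-2.61 ± 0.27, adjusted p = 3.88e-07), and its value in JAR1-OE was 0.58 ± 0.26 (adjusted p = 0.0963), whereas COR15A and RD29A, reported for VNI2 as well, rose in all 3 genotypes. GLK1, which ATAF1 represses, fell in jar1-11 (-2.09 ± 0.21, adjusted p = 9.44e-08) and in WT (-1.2 ± 0.20, adjusted p = 9.35e-05), and its value in JAR1-OE was -0.08 ± 0.19 (adjusted p = 0.799). Of the chlorophyll catabolism genes, SGR1, PAO and PPH rose in all 3 genotypes, and NYC1 and NOL were not called in any. Under drought 7 of the 21 were higher and 5 lower in jar1-11 than in WT, and 4 were higher and 6 lower in JAR1-OE than in WT. Over all genes tested, 16.6% were higher and 17.9% lower in jar1-11, and 10.1% higher and 5.84% lower in JAR1-OE. The median log2 fold change of the 21 was 0.18 for jar1-11 and -0.20 for JAR1-OE against WT. Of 9 genes for protein partners and turnover of these factors, 7 passed the filter. With drought 3 rose and 1 fell in jar1-11, 2 rose and 2 fell in JAR1-OE, and 1 rose and 2 fell in WT. Over all genes tested, 28.7% rose and 29.7% fell in jar1-11, 14.1% and 15.0% in JAR1-OE, 18.1% and 21.1% in WT. RHA2A, an ABA-signalling ubiquitin ligase, rose in all 3 (1.29 ± 0.23, 0.76 ± 0.23 and 1.13 ± 0.23 in the same order, adjusted p = 1e-04, 0.0182 and 0.000702).

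**Figure D4:**
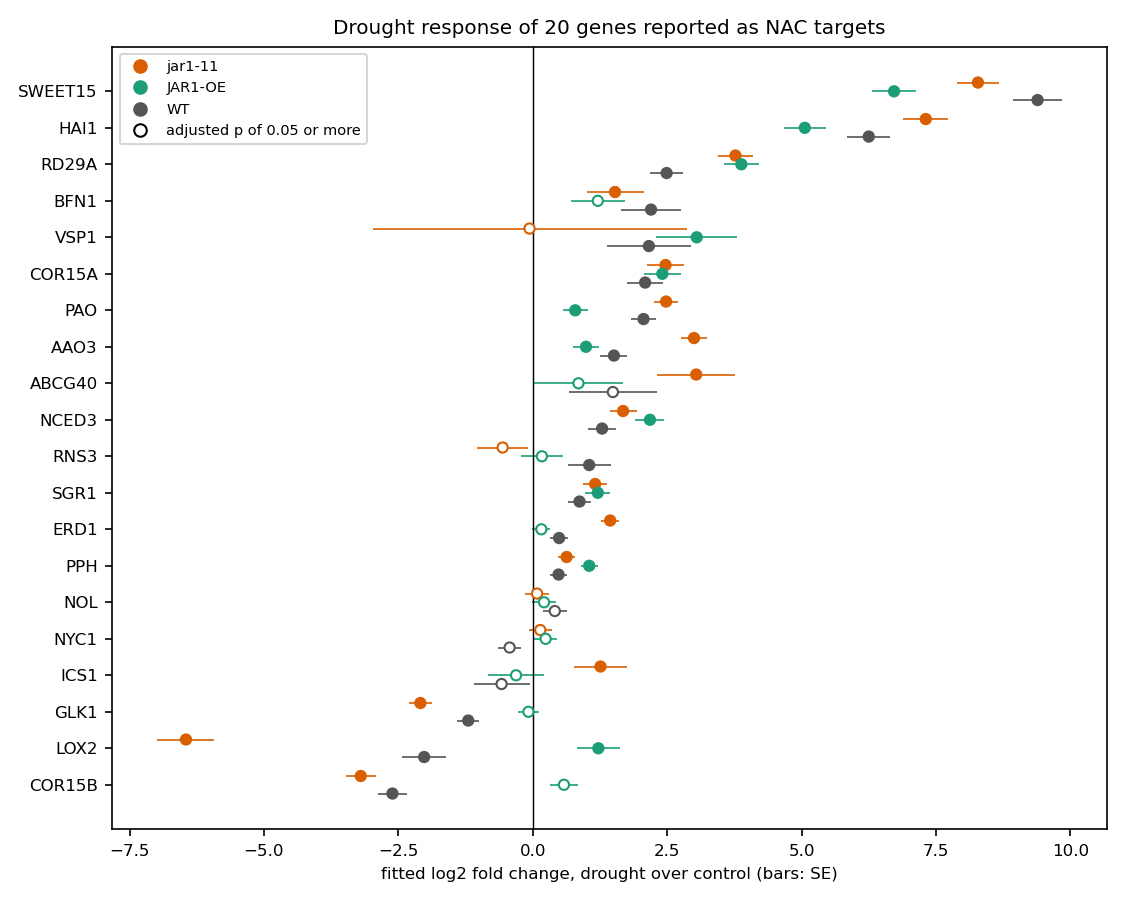
Fitted log2 fold change of drought over control for 20 of the 21 genes reported as targets, in jar1-11, JAR1-OE and WT. BSMT1 is left out because a group had 0 reads, points are fitted values, bars are SEs, and open points did not pass an adjusted p of 0.05. HAI1 lies at 7.31 in jar1-11, 5.06 in JAR1-OE and 6.25 in WT, and COR15B and GLK1 lie left of 0 in jar1-11 and WT.

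As a description of likeness, the gene with the highest Pearson correlation of log2 CPM over the 18 libraries was sought for each of the 10, among 10682 genes with a mean of at least 10 CPM. The 18 libraries fall into 6 groups, so these values mostly compare group means, and with so many genes a high best value arises easily. The closest were AT1G05340 for ATAF1 (r = 0.992), MBD10 for RD26 (0.989), ADC2, an arginine decarboxylase gene of putrescine synthesis, for NAC019 (0.971), CES101 for NAP (0.971) and RSH3 for ORE1 (0.968). They were followed by AT2G39210 for ATAF2 (0.959), PED1, a peroxisomal thiolase gene of fatty acid breakdown, for NAC102 (0.957), PRS1 for VNI2 (0.925), AT2G46620 for NAC016 (0.917) and DOX1, a fatty acid dioxygenase gene, for NAC055 (0.897).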

How the data were processed

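Reads were made by a 3′ mRNA kit (QuantSeq) and sequenced on an Illumina instrument, per the labels' protocols. The deposited values are counts, the unique reads of each gene per the file headers. For the aligner, counter, strand setting and build: not given in the sources used here. Annotation TAIR10.1 holds 27445 of the identifiers, 27432 of them at an equal length. The YFP-JAR1 entry (732 bases) stayed out of totals and tests.

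The 10 genes and the lists of related genes, drawn from general knowledge, were chosen with earlier results of these data known. Libraries were numbered 1 to 3 within a group by the replicate number in the labels' description field, since the titles number drought libraries on from the control ones. Counts were scaled by TMM, filtered with filterByExpr (17678 genes kept, 9977 not tested) and modelled by group in edgeR 4.0.16 under R 4.3.3, all 18 libraries together. The quasi-likelihood test was run for 10 contrasts, with Benjamini-Hochberg adjustment over all genes tested, and the procedure was tested on simulated data. For drought in WT it recovered 45.9% of 2-fold and 89% of 4-fold changes, with 5.63% of calls false. For the difference of response between jar1-11 and WT it recovered 15.3% and 69%, with 3.45% of calls false. In the simulation 98 genes changed 2-fold and 100 changed 4-fold, of 17406, all in the WT drought group. The real contrasts called 6943 and 2761 genes, and the adjustment depends on how many genes change. These rates therefore need not hold for the real data, where differences of response of about 2-fold may be missed. SEs were recovered from the log2 fold change and its F statistic. The depth of 4716155 to 9506727 reads limits the genes at a few CPM, such as NAC016. Between replicates, chi-square over its degrees of freedom was 5.54 to 27.9, so no library repeats another.

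Named genes are all 10 members, for each list the called genes with the 3 smallest p per contrast, and for each member the most correlated gene. List genes given outside that rule (such as ABF4, ABI5, PIF4, GLK1, COR15A and the chlorophyll catabolism genes) were chosen after their values were seen. log2 CPM used a prior count of 2. No promoter table was used: windows of 250 bases upstream of annotated gene starts were read from the reference genome. Alternatives were RLE, upper-quartile and library-total scaling, no filter, only the groups compared, a replicate block, limma-voom (limma 3.58.1), DESeq2 1.42.0 and leaving out each library in turn.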

Additional observations from a re-analysis of the deposited data

Results flagged for a closer look

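The drought response differed between jar1-11 and WT by the test of the difference for 6 of the 10 genes. Of all genes tested 15.6% were called, 6.99% with a higher response in jar1-11. The differences of log2 fold change were 1.69 for NAC019, 2.26 for RD26, 1.02 for ATAF1, 2.40 for ATAF2, 1.72 for NAP and 1.53 for ORE1. In 20 alternative fits the ATAF1 call ended in 8, the ORE1 call in 6 and those of NAC019, RD26, ATAF2 and NAP in 0. Between JAR1-OE and WT the same test differed for ATAF1, at -1.21, where 6.01% of all genes were called, 1.75% lower. That call ended in 6 of 20 alternative fits. The YFP-JAR1 entry, which stands outside the gene counts compared here, held 1340 reads over the 6 JAR1-OE libraries (558, 26 and 147 under drought, 214, 88 and 307 with water) and 0 in the other 12.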

How the results depend on the processing

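No value of the 10 genes that was called changed sign under an alternative. Over 1520 recomputed values of single genes, 1418 kept their side of the threshold, 76 lost a call and 26 gained one. Values called in neither fit could change sign, as NAC055 did for drought in WT (-0.62 to 0.11). Of the 10 counts of called genes, 1 moved by more than 1.5 times with all libraries in: for JAR1-OE against WT with water it was 2 and became 1 under the replicate block, with only the groups compared and in limma-voom, and the cause was not tested. Leaving out 1 library at a time gave 4 to 7 called genes for drought in WT, 8 to 9 in jar1-11 and 5 to 8 in JAR1-OE. It gave 0 to 0 for jar1-11 and 0 to 2 for JAR1-OE against WT with water, 6 to 9 for jar1-11 and 1 to 3 for JAR1-OE against WT under drought, 6 to 9 for JAR1-OE against jar1-11, and 4 to 7 and 0 to 1 for the differences of response in jar1-11 and JAR1-OE. Calls over all genes changed in these fits too. For the jar1-11 difference they went from 2761 of 17678 to 1458 of 17976 without jar1-11 drought 2. For libraries of the same number, the correlation of their deviations from the group means was between -0.28 and 0.18. It passed 0.1 for single pairs, such as 0.11 and 0.18 for jar1-11 against WT under drought, but for every pair in no contrast. With 3 libraries in a group, this cannot tell whether they shared more than a number. The block changed 2 of 100 single calls, RD26 for JAR1-OE against WT with water (adjusted p = 0.0708) and ATAF1 for the difference in jar1-11 (adjusted p = 0.0513). Upper-quartile scaling and library totals moved the median of all genes by over 0.1, to -0.175 and -0.177, for jar1-11 against WT under drought, where 9 became 7 called. For the difference of response between jar1-11 and WT the medians were -0.158 and -0.184, and upper-quartile scaling gave -0.109 for drought in jar1-11 and 0.155 for JAR1-OE against jar1-11 under drought. The alternative with total gene reads was not run, as no such column was used here. NAC055 had the widest interval of the 10 genes in every contrast.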
